A study of Mus musculus with 13 samples.

Results

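A set of 10 genes of the intestinal crypt, named as stem cell markers and targets of Wnt signalling, was followed in sorted jejunal epithelial cells of mice kept on different feeding schedules. The 10 genes are Lgr5, Olfm4, Ascl2, Smoc2, Ephb2, Axin2, Sox9, Rnf43, Znrf3 and Slc12a2, out of 21868 genes in the count table. All 10 were found by symbol, and all 10 passed the filter on low counts that left 14300 genes. The rule goes by symbol and uses no measured value.

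The libraries fell into 5 groups. BSF_C (n = 3) is described only as breakfast skipping combined with control. Food was given between ZT16 and ZT24 to BSF (n = 2), the breakfast-skipping group. LSF (n = 3), which skipped lunch, had food between ZT12 and ZT16 and again between ZT20 and ZT24. DSF (n = 2), which skipped dinner, had it between ZT12 and ZT20. These schedules ran for 2 weeks. The control group, con (n = 3), has no stated feeding times. ZT is the zeitgeber time in hours of the light cycle. No strain, age or sampling hour, and no feeding times for BSF_C, are stated in the sources used here. The sort took EpCAM-bearing epithelial cells and set aside those with the leukocyte antigens CD45, CD11b, CD3 or B220. The labels call the libraries biological replicates without saying that each came from its own mouse, so the spread behind each p-value is that between libraries and may be technical.

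The lining of the small intestine is renewed from stem cells at the base of the crypts. Wnt ligands acting through Frizzled receptors keep beta-catenin from being destroyed, and beta-catenin with TCF factors then switches on the genes of the stem cell state. R-spondins strengthen the signal through Lgr receptors, and several Wnt targets, among them Axin2, Rnf43 and Znrf3, damp it again as negative feedback. As cells leave the crypt base, these genes fade and those of absorptive enterocytes take over.

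The con libraries stood apart from all the others, which bears on every comparison with con. Total counts ran from 7127769 to 8589351 in the feeding groups and from 4851239 to 5202146 in con. The chi-square per degree of freedom between libraries is expected near 1 from counting error. It was 54 to 77.9 between con and another group, against 2.13 to 3.93 within con. Within the feeding groups it was 1.37 to 2.07, so their libraries differed by little more than counting error. Between different feeding groups it was 1.61 to 12.3. Epcam, the antigen selected for, averaged 351 ± 13.7 CPM in BSF_C, 335 ± 7.78 in BSF, 322 ± 7.39 in LSF, 375 ± 13.3 in DSF and 193 ± 15.8 in con (CPM are counts scaled to a common library size, ± SD). Ptprc (CD45), selected against, averaged 16 ± 2.42, 13.8 ± 1.44, 18.7 ± 1.25 and 17.8 ± 1.84 CPM in the same feeding groups and had 2 counts in con. The 9 jejunal epithelium genes listed, Epcam among them, summed to 6890 to 7315 CPM in BSF_C and 6736 to 6994 in BSF. They summed to 6770 to 6788 CPM in LSF, 7433 to 7665 in DSF and 6309 to 7084 in con. The 13 skin keratinocyte genes listed summed to 5.90 to 9.60 CPM in BSF_C, 5.65 to 6.80 in BSF, 8.81 to 12.2 in LSF, 7.39 to 7.94 in DSF and 512 to 613 in con. Heart muscle and melanocyte genes ran the other way. Smooth muscle genes summed to 53.5 to 61 CPM in con, between BSF (41.6 to 50.3) and LSF (88.8 to 90.6). The 9 heart muscle genes summed to 90.4 to 106 CPM in BSF_C, 94.4 to 96.4 in BSF, 240.4 to 282 in LSF, 262 to 268 in DSF and 7.07 to 11.1 in con. The 5 melanocyte genes summed to 69.5 to 109 CPM in BSF_C, 132 to 135 in BSF, 128 to 184 in LSF, 116 to 156 in DSF and 18.2 to 19.8 in con. In con 6 of the heart muscle genes had no count (Myh6, Myh7, Actc1, Myl2, Ryr2 and Nppa), and so had 1 melanocyte gene (Tyrp1). No batch is recorded, and one that held con by itself could not be told apart from feeding.

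Short stretches of promoter are shown for 4 of the genes because they include the member that went up against con, Ascl2, and 3 that went down, Ephb2, Axin2 and Olfm4. The RefSeq promoter windows used here matched 5 of the 10 genes, 6 windows in all, the fifth gene being Rnf43 with 2 starts. Each window runs on GRCm38.p6 from 250 bases before to 50 bases after a RefSeq start, 5′ to 3′ on the strand of the gene. Capitals mark the CCAAT box (CCAAT, or ATTGG on the other strand) and the core of the TATA box (TATAA, or TTATA). The windows are chr7:142969215-142969514 on the minus strand for Ascl2, chr4:136835963-136836262 on the minus strand for Ephb2, chr11:108920099-108920398 on the plus strand for Axin2 and chr14:80000052-80000351 on the plus strand for Olfm4. In GENCODE the Olfm4 gene begins further upstream, so this start lies inside it.
Ascl2: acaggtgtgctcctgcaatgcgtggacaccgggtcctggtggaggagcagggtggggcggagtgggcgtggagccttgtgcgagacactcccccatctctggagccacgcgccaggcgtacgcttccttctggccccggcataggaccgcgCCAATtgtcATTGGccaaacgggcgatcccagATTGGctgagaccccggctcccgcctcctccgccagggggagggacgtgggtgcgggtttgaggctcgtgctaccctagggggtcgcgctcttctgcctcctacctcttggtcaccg
Ephb2: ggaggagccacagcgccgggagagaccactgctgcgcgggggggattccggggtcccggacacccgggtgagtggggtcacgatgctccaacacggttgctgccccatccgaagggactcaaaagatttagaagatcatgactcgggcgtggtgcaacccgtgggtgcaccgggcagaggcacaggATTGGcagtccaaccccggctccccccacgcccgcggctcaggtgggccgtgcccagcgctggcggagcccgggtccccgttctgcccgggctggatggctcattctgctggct
Axin2: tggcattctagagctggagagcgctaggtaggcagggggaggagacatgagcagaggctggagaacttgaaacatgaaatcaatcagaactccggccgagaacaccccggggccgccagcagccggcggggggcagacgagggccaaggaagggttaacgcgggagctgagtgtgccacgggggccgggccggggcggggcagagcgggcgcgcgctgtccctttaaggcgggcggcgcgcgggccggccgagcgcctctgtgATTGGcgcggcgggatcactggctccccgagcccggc
Olfm4: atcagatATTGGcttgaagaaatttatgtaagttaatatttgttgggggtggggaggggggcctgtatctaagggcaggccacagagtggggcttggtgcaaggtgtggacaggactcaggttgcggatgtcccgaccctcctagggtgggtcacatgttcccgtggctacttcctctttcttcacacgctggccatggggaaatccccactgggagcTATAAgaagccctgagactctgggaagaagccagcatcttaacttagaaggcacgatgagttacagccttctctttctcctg
Counted from the start, Ascl2 held 3 CCAAT boxes, at -99, -90 and -67, and Ephb2 held 1 at -64. Axin2 held 1 just after the start, at 14. Olfm4 held 1 at -243 together with a TATA core at -32. The 2 Rnf43 windows held neither, so 4 of the 6 windows held a CCAAT box and 1 a TATA core. Of all 32851 promoter windows, 37.4% held a CCAAT box and 24.9% a TATA core on either strand. Cores of TCF and LEF binding sites were searched as well. The word CTTTGAT was in 3.73% of all windows on either strand, CTTTGTT was in 5.85% and CTTTGAA in 5.14%, with 13.9% holding at least 1 of the 3. None of the 6 windows here held any of them. The Ascl2 and Ephb2 windows were 67% and 68.7% G and C, and the Olfm4 window 52.3%.

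Per length of exon, Olfm4 was far above the other members in every group. It reached 584 ± 8.18 CPM per kb in BSF_C, 604 ± 21.1 in BSF, 439 ± 1.53 in LSF, 582 ± 7.50 in DSF and 950.2 ± 32.3 in con (mean ± SD). Lgr5 was the lowest member throughout, at 1.43 ± 0.146 CPM per kb in BSF_C, 1.84 ± 0.0654 in BSF, 1.86 ± 0.0547 in LSF, 1.47 ± 0.105 in DSF and 2.83 ± 0.0683 in con. In the feeding groups Slc12a2 came second, at 19.5 ± 1.15 CPM per kb in BSF_C and 16.2 ± 0.865 in LSF. In BSF, Ascl2, Axin2, Smoc2, Sox9 and Rnf43 followed, from 14.4 ± 2.54 down to 11 ± 0.598 CPM per kb, with neighbours inside their spread, and then Ephb2 at 7.77 ± 0.275 and Znrf3 at 2.44 ± 0.402. In LSF the order was Rnf43, Axin2, Ascl2 and Sox9, from 13.4 ± 0.248 down to 10.2 ± 0.580 with neighbours inside their spread, and then Smoc2 at 8 ± 0.201, Ephb2 at 6.21 ± 0.288 and Znrf3 at 2.22 ± 0.0225. In con the order was different: Rnf43, Axin2, Ephb2, Smoc2 and Slc12a2 ran from 27.7 ± 1.67 down to 21.5 ± 3.47 CPM per kb, with neighbours inside their spread except Axin2 and Ephb2, and Ascl2 lay near the bottom at 3.38 ± 1.40.

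**Figure D1:**
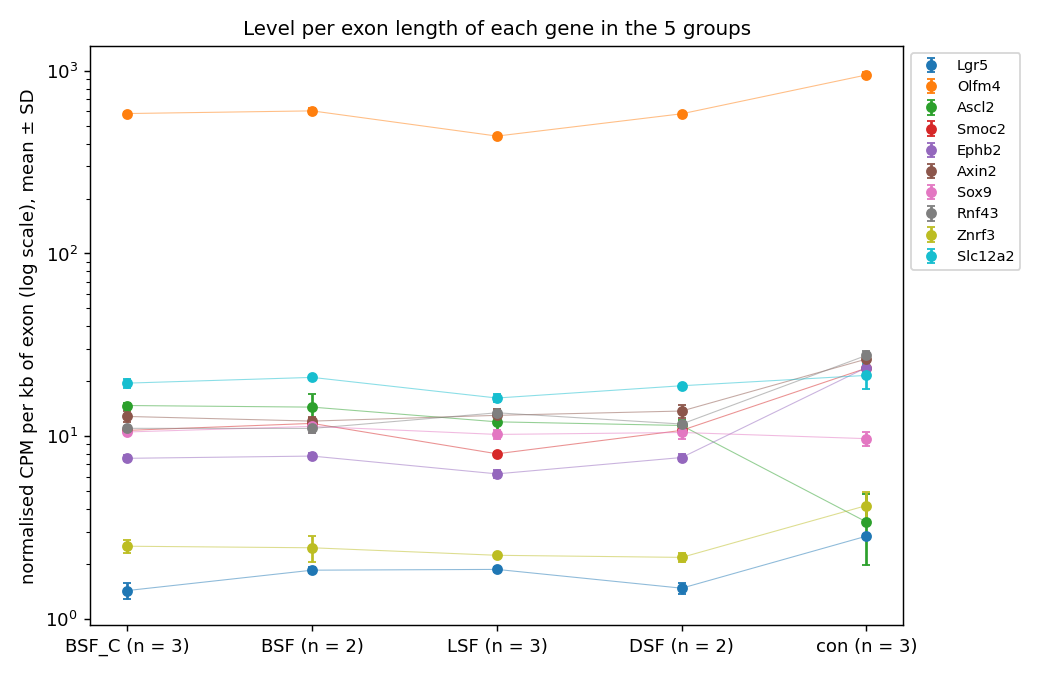
Level of each gene in normalised CPM per kb of exon, on a log axis, for the 5 groups. Points are group means, error bars are SDs and thin lines join the points of a gene; Olfm4 lies above all others in every group and the Ascl2 point is lower in con than in the feeding groups.

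The comparisons of each feeding group with con ask how the crypt genes differed from the control group. Lgr5, Olfm4, Smoc2, Ephb2, Axin2, Rnf43 and Znrf3, 7 of the 10, were lower than con in all 4 feeding groups. Ascl2 alone was higher in all 4. Sox9 was called in none, and Slc12a2 was called lower in LSF and DSF. The call was an adjusted p under 0.05 in edgeR's quasi-likelihood test across all genes. In BSF_C 1 member was higher and 7 were lower, beside 39.8% of all tested genes called higher and 33.2% called lower (73% in all). In BSF 1 was higher and 7 were lower, beside 38.3% and 31.9% (70.2% in all). In LSF 1 was higher and 8 were lower, beside 38.9% and 33% (72% in all), and in DSF 1 was higher and 8 were lower, beside 36.6% and 31.1% (67.7% in all). The CPM of the libraries did not overlap with con for 9 members in BSF_C, 9 in BSF, 9 in LSF and 8 in DSF, beside 72.5%, 75.7%, 72.1% and 74% of all genes. Shares this large over all genes mean that a call, by itself, says little about the members. The median log2 fold change of the 10 was -0.86 in BSF_C, -0.71 in BSF, -0.96 in LSF and -0.94 in DSF, beside 0.12, 0.11, 0.10 and 0.10 over all genes. The 4 comparisons share the 3 con libraries and are not independent of one another. Fewer crypt cells in the sort and less RNA of these genes per cell cannot be told apart in these bulk libraries.

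**Figure D2:**
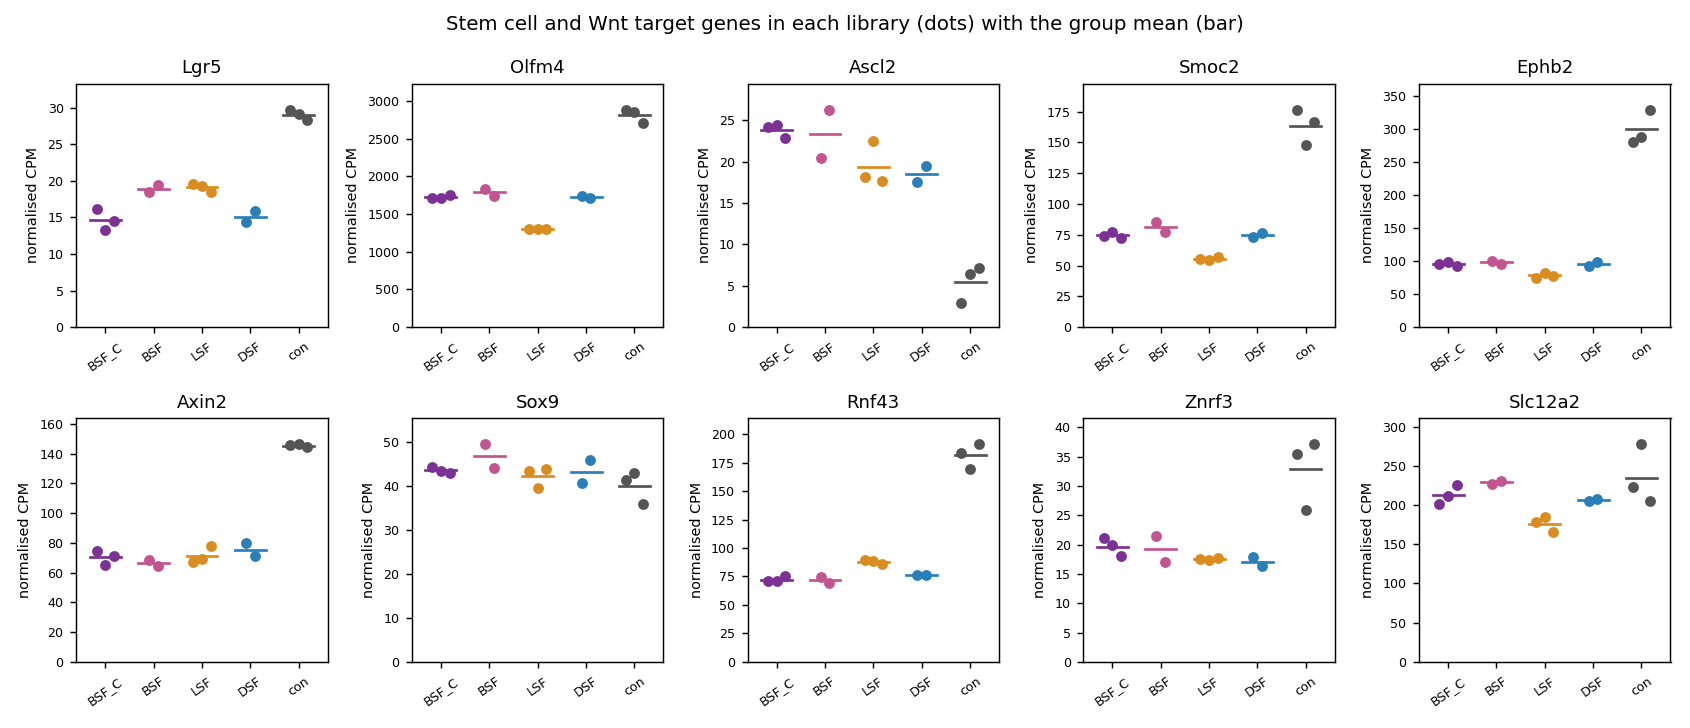
Normalised CPM of the 10 genes in every library, with a panel for each gene. Dots are libraries, bars are group means and each axis starts at 0; con dots lie above all others for Lgr5, Olfm4, Smoc2, Ephb2, Axin2, Rnf43 and Znrf3 and below all others for Ascl2.

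Lgr5 encodes the R-spondin receptor that marks the cycling stem cells of the crypt base (chromosome 10, 115450311 to 115587780, GRCm38). It stood at 16.2, 13.2 and 14.4 CPM in BSF_C, 18.4 and 19.4 in BSF, 19.6, 19.3 and 18.5 in LSF, 14.3 and 15.8 in DSF, and 29.7, 29.1 and 28.3 in con. All 3 con libraries lay above all 10 others, and among the feeding groups BSF and LSF lay above BSF_C and DSF without overlap. The log2 fold change against con was -0.99 ± 0.12 in BSF_C, -0.62 ± 0.13 in BSF, -0.61 ± 0.12 in LSF and -0.95 ± 0.14 in DSF (± SE, adjusted p at most 5.28e-05). These values rest on 110 to 174 counts per library.

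Olfm4 encodes olfactomedin 4, a secreted glycoprotein made in quantity by the same stem cells (chromosome 14, 79984081 to 80023139). It stood at 1717, 1714 and 1758 CPM in BSF_C, 1833 and 1745 in BSF, 1296, 1303 and 1305 in LSF, 1740.0 and 1709 in DSF, and 2885, 2853 and 2706 in con. The con libraries were again the highest, and the 3 LSF libraries lay below every other library. Against con the log2 fold change was -0.70 ± 0.04 in BSF_C, -0.65 ± 0.05 in BSF, -1.11 ± 0.04 in LSF and -0.71 ± 0.05 in DSF (adjusted p at most 2.21e-17).

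Smoc2 encodes a secreted calcium-binding matrix protein enriched in Lgr5-positive cells (chromosome 17, 14279506 to 14404790). It stood at 74.2, 77.6 and 72.2 CPM in BSF_C, 85.7 and 77.3 in BSF, 55.5, 54.2 and 57 in LSF, 73 and 76.4 in DSF, and 177, 148 and 167 in con. As for Olfm4, con was highest without overlap and LSF lowest without overlap. Its log2 fold change against con was -1.13 ± 0.07 in BSF_C, -1.01 ± 0.08 in BSF, -1.56 ± 0.07 in LSF and -1.13 ± 0.08 in DSF (adjusted p at most 3.31e-17).

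Ascl2 encodes a basic helix-loop-helix transcription factor, itself a Wnt target, that mouse intestinal stem cells need (chromosome 7, 142966829 to 142969264). It stood at 24.2, 24.5 and 22.9 CPM in BSF_C, 20.5 and 26.3 in BSF, 18.1, 22.5 and 17.7 in LSF, 17.6 and 19.5 in DSF, and 2.89, 6.45 and 7.14 in con. The 3 con libraries held 14, 31 and 31 counts of it and lay below all 10 others, which held 133 to 236. Ascl2 rose by 2.13 ± 0.19 in BSF_C, 2.11 ± 0.20 in BSF, 1.83 ± 0.19 in LSF and 1.77 ± 0.21 in DSF (log2 ± SE, adjusted p at most 1.08e-10). The ratio of its counts to those of Lgr5 within a library, which no scaling changes, was 1.49, 1.85 and 1.58 in BSF_C, 1.11 and 1.36 in BSF, 0.926, 1.17 and 0.957 in LSF, 1.23 and 1.23 in DSF, and 0.0972, 0.221 and 0.252 in con. Every feeding library lay above every con library in this ratio. The pair was picked after its opposite signs were seen, so the ratio adds no support.

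Sox9 encodes a transcription factor of the crypt base that Paneth cells require (chromosome 11, 112782224 to 112787760). It stood at 44.3, 43.4 and 42.8 CPM in BSF_C, 49.4 and 44 in BSF, 43.5, 39.4 and 43.7 in LSF, 40.7 and 45.8 in DSF, and 41.3, 42.8 and 35.9 in con. The groups lay close together; the con range overlapped those of LSF and DSF and lay just under those of BSF_C and BSF. No change was called, with log2 fold changes of 0.12 ± 0.09 in BSF_C (adjusted p = 0.255), 0.22 ± 0.10 in BSF (0.0563), 0.07 ± 0.09 in LSF (0.492) and 0.11 ± 0.10 in DSF (0.361). In BSF it was called higher without con replicate 2 (0.26, adjusted p = 0.0328) or without BSF replicate 2 (0.29, adjusted p = 0.0418). Leaving out 1 of the 2 BSF or DSF libraries leaves an arm of 1, which here and below is assumed to vary like the other groups. It was also called higher in BSF_C, BSF and DSF with library totals alone (0.28, 0.39 and 0.27), and in all 4 groups after correction for GC content and gene length (0.26, 0.36, 0.23 and 0.25 in BSF_C, BSF, LSF and DSF). Beside Sox9, Paneth cell genes were higher than con: their sum over 12 genes was 1922 to 1958 CPM in BSF_C, 1831 to 1862 in BSF, 1394 to 1479.6 in LSF, 1615 to 1675 in DSF and 345 to 394 in con. The part of Paneth cells in the level of Sox9 was not tested.

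Axin2 encodes a scaffold of the complex that destroys beta-catenin and is a general target and feedback inhibitor of Wnt signalling (chromosome 11, 108920349 to 108950783). It stood at 74.6, 65.4 and 71.5 CPM in BSF_C, 68.8 and 64.2 in BSF, 67.5, 69.1 and 77.9 in LSF, 79.9 and 71.1 in DSF, and 146, 146 and 144 in con. The con libraries lay within 2 CPM of each other and far above the other 10, which ran from 64.2 to 79.9 CPM. Its log2 fold change against con was -1.05 ± 0.07 in BSF_C, -1.13 ± 0.08 in BSF, -1.03 ± 0.07 in LSF and -0.95 ± 0.08 in DSF (adjusted p at most 1.28e-15).

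Rnf43 and Znrf3 encode related membrane ubiquitin ligases that clear Frizzled receptors from the cell surface and are held in check by R-spondins and Lgr receptors. Rnf43 (chromosome 11, 87662722 to 87735539) stood at 70.6, 71.1 and 75.2 CPM in BSF_C, 75 and 69.4 in BSF, 89.2, 88.5 and 86.1 in LSF, 76.5 and 76.1 in DSF, and 184, 169 and 191 in con. Here con was highest and LSF was the next highest, with neither overlapping any other group. The log2 fold change of Rnf43 against con was -1.33 ± 0.06 in BSF_C, -1.33 ± 0.07 in BSF, -1.04 ± 0.06 in LSF and -1.25 ± 0.07 in DSF (adjusted p at most 3.85e-21). Znrf3 (chromosome 11, 5276324 to 5444847) stood at 21.1, 19.9 and 18 CPM in BSF_C, 21.5 and 17 in BSF, 17.6, 17.3 and 17.7 in LSF, 17.8 and 16.4 in DSF, and 35.5, 26 and 37.1 in con. The con libraries were the highest, and the feeding groups lay close together, between 16.4 and 21.5 CPM. For Znrf3 the log2 fold changes were -0.74 ± 0.12, -0.77 ± 0.14, -0.90 ± 0.13 and -0.94 ± 0.14 in BSF_C, BSF, LSF and DSF (adjusted p at most 2.52e-06). Axin2, Sox9, Rnf43 and Znrf3 all lie on chromosome 11, at 4 separate places.

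Ephb2 encodes a receptor tyrosine kinase, switched on by Wnt, that sorts cells by position along the crypt (chromosome 4, 136647539 to 136835988). It stood at 94.8, 98.9 and 91.9 CPM in BSF_C, 100.4 and 95.5 in BSF, 75.1, 82.2 and 77.5 in LSF, 93.1 and 99.2 in DSF, and 281, 288 and 329 in con. Con lay far above the rest, and LSF was below the other feeding groups without overlap. It fell by more than any other member in all 4 comparisons with con, with log2 fold changes of -1.65 ± 0.06 in BSF_C, -1.61 ± 0.07 in BSF, -1.93 ± 0.06 in LSF and -1.63 ± 0.07 in DSF (adjusted p at most 5.87e-27).

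Slc12a2 encodes the basolateral sodium, potassium and chloride cotransporter that feeds chloride secretion in crypt cells (chromosome 18, 57878678 to 57946821). It stood at 201, 212 and 226 CPM in BSF_C, 227 and 231 in BSF, 179, 184 and 166 in LSF, 205 and 207 in DSF, and 222, 277 and 205 in con. The con libraries were spread widely and overlapped BSF_C, BSF and DSF, while the 3 LSF libraries lay below all others. It fell in LSF (log2 fold change -0.41 ± 0.07, adjusted p = 3.95e-07) and in DSF (-0.19 ± 0.08, adjusted p = 0.0229), and was at -0.14 ± 0.07 in BSF_C (adjusted p = 0.0517) and -0.04 ± 0.07 in BSF (adjusted p = 0.658). The DSF call was lost without con replicate 2 (-0.06, adjusted p = 0.478), DSF library S2 (-0.19, 0.0907) or DSF library S3 (-0.20, 0.0684), with library totals alone (-0.03, 0.712) and with only the groups compared in the fit (-0.15, 0.147). In BSF it was called lower after correction for GC content and length (-0.17, adjusted p = 0.0122). In BSF_C it was called lower in 9 of 16 alternatives, so most settings differ from the main one. These included that correction (-0.22, 0.000274), DESeq2 size factors (-0.16, 0.0273), no filter (-0.14, 0.034), thinned libraries (-0.16, 0.0338), genes of other cell types left out (-0.14, 0.0492), and leaving out con replicate 1 (-0.18, adjusted p = 0.0299), con replicate 3 (-0.23, 0.000497) or BSF_C replicate 3 (-0.20, 0.0165).

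**Figure D3:**
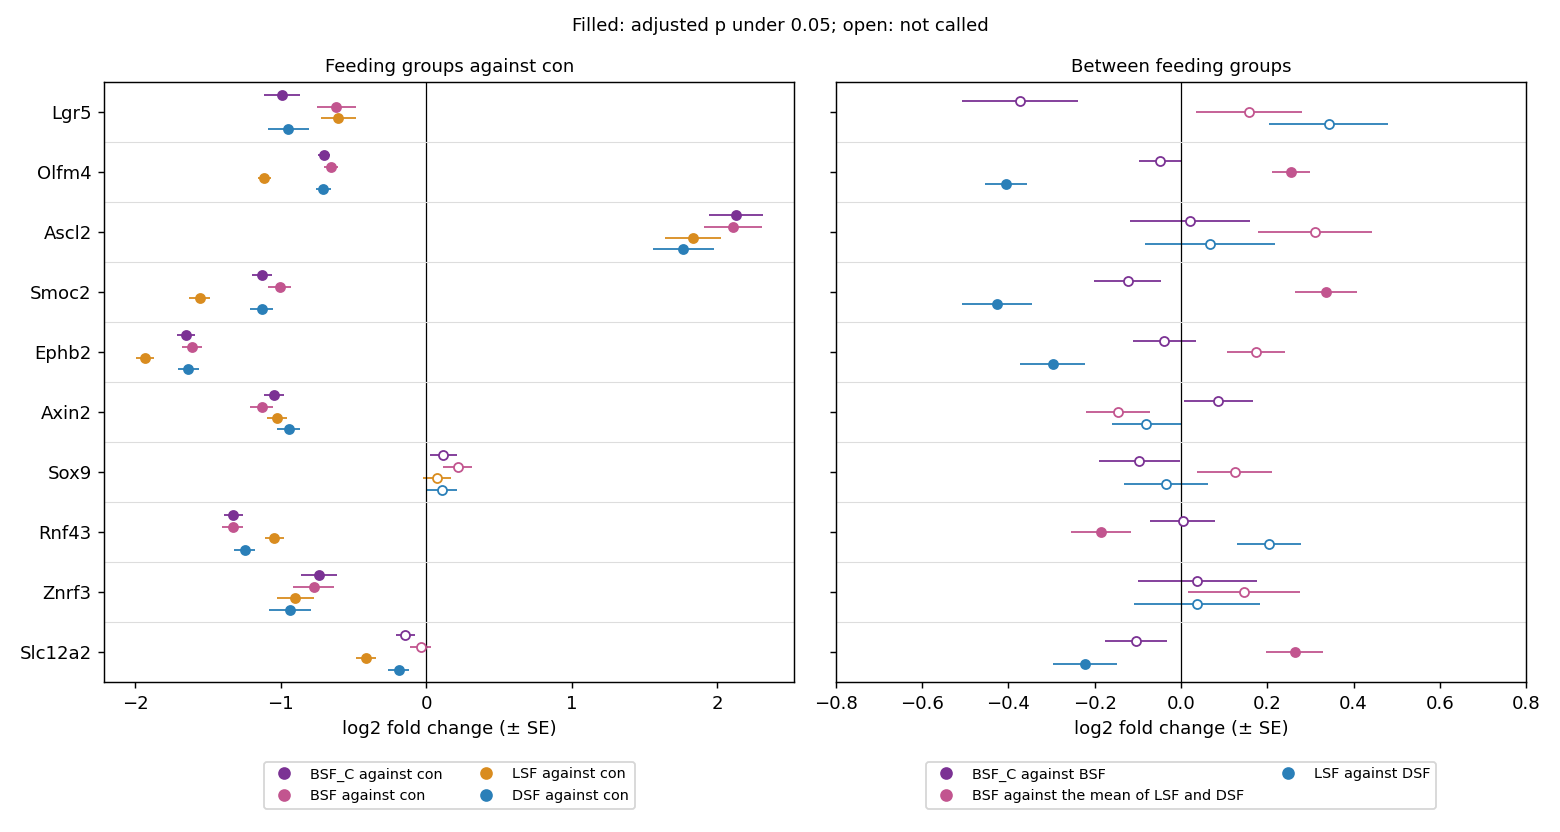
Log2 fold change ± SE of the 10 genes (rows) for the feeding groups against con (left) and between feeding groups (right, on a narrower axis). Filled points passed an adjusted p of 0.05 and open points did not; on the right, Olfm4, Smoc2, Ephb2 and Slc12a2 are filled below 0 for LSF against DSF.

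The comparisons between feeding groups use no con value for their fold changes, though con enters the filter, the scaling, the estimate of spread and so the p-values. With con left out, 14051 genes were tested in place of 14300, and LSF against DSF had 2947 calls over all genes in place of 2271. In LSF against DSF, which asks how skipping lunch differed from skipping dinner, Olfm4, Smoc2, Ephb2 and Slc12a2 fell and no member rose. These 4 of 10 stand beside 6.91% of all genes called lower and 8.97% called higher (15.9% in all). The libraries of LSF and DSF did not overlap for 6 members, these 4 with Lgr5 and Rnf43, beside 45% of all genes. Olfm4 fell by 0.41 ± 0.05 (log2 ± SE, adjusted p = 1.62e-09), Smoc2 by 0.43 ± 0.08 (7.22e-05), Ephb2 by 0.30 ± 0.08 (0.00283) and Slc12a2 by 0.22 ± 0.07 (0.0289). The feedback ligases and Lgr5 had the other sign without passing the test: Rnf43 was at 0.20 ± 0.07 (adjusted p = 0.0502), Lgr5 at 0.34 ± 0.14 (0.087) and Znrf3 at 0.04 ± 0.15 (0.916), the last at -0.02 with library totals alone. Axin2 was at -0.08 ± 0.08 (0.581), Ascl2 at 0.07 ± 0.15 (0.84) and Sox9 at -0.03 ± 0.10 (0.875). The median log2 fold change of the 10 was -0.06, beside -4e-04 over all genes.

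Ratios of counts inside a library restate this contrast without any scaling. The pairs were picked after their opposite signs were seen, so they add no support to it. Olfm4 counts per Lgr5 count were 66.3, 67.6 and 70.6 in LSF, against 122 and 108 in DSF. Smoc2 counts per Rnf43 count were 0.622, 0.612 and 0.662 in LSF, against 0.954 and 1 in DSF. In both ratios every LSF library lay below every DSF library, and with 3 against 2 libraries an exact permutation test cannot give a two-sided p under 0.2. The LSF ratios also lay below those of BSF, which were 99.4 and 90 for Olfm4 to Lgr5 and 1.14 and 1.11 for Smoc2 to Rnf43.

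Some of these calls rested on single libraries or on the method. Without DSF library S3, 2 members were called in LSF against DSF in place of 4, Ephb2 being lost (-0.25, adjusted p = 0.0948) and Slc12a2 too (-0.22, 0.17), and 1430 genes were called in place of 2271. Without DSF library S2, Slc12a2 was lost (-0.23, adjusted p = 0.143) and 1288 genes were called. Slc12a2 was also lost without LSF replicate 1 (-0.23, 0.0543) and without LSF replicate 3 (-0.18, 0.165), as well as with DESeq2's Wald test (-0.22, 0.0611) and with thinned libraries (-0.21, 0.0574). Rnf43 was called higher in LSF in 4 of 15 alternatives, among them with con left out of the fit (0.21, adjusted p = 0.0142), and Lgr5 with all libraries thinned to the smallest total (0.47, 0.0432). Over all genes in LSF against DSF, 1283 calls were higher and 988 lower, and with library totals alone 1013 were higher and 1651 lower. Under that scaling Olfm4, Smoc2, Ephb2 and Slc12a2 were still called lower.

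BSF set against the mean of LSF and DSF asks how skipping breakfast differed from skipping another meal. Olfm4 rose by 0.26 ± 0.04 (log2 ± SE, adjusted p = 1.27e-05), Smoc2 by 0.34 ± 0.07 (0.000395) and Slc12a2 by 0.26 ± 0.07 (0.0027), while Rnf43 fell by 0.18 ± 0.07 (0.0475). Beside these, 7 of the 8 heart muscle genes tested were lower in BSF, and 10 of the 12 stromal genes. Their part in the members' values was not tested. So 3 of 10 members were higher, beside 9.87% of all genes, and 1 of 10 was lower, beside 11.5% (21.4% called in all). For these 4 the BSF libraries lay outside the range of the 5 LSF and DSF libraries, as they did for 32.1% of all genes. The DSF values of Olfm4, Smoc2 and Rnf43 were nevertheless close to those of BSF, and LSF lay further off. Ephb2 was at 0.17 ± 0.07 (adjusted p = 0.0575), Ascl2 at 0.31 ± 0.13 (0.0856), Lgr5 at 0.16 ± 0.12 (0.388), Axin2 at -0.15 ± 0.07 (0.163), Sox9 at 0.12 ± 0.09 (0.33) and Znrf3 at 0.15 ± 0.13 (0.466). With con left out of the fit Ephb2 (0.17, adjusted p = 0.0152) and Ascl2 (0.31, 0.0316) were called higher.

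The Rnf43 call lay at the threshold and was lost in 12 of 17 alternatives, among them without BSF replicate 1 (-0.24, adjusted p = 0.0878), BSF replicate 2 (-0.13, 0.44), DSF library S2 (-0.18, 0.0993), DSF library S3 (-0.19, 0.0879) and LSF replicates 1 (-0.18, 0.0789), 2 (-0.18, 0.0729) and 3 (-0.19, 0.0563). Ascl2 was called higher without LSF replicate 2 (0.37, adjusted p = 0.049). Smoc2 was lost without BSF replicate 1 (0.26, adjusted p = 0.0647) and Slc12a2 without BSF replicate 2 (0.25, 0.0614). Either way 2 members were then called, Olfm4 among them, and 1467 and 1478 genes in all in place of 3055. Over all genes, 1411 calls were higher and 1644 lower, and with library totals alone 2015 were higher and 1295 lower.

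In BSF_C against BSF, which sets the combined group beside breakfast skipping alone, edgeR's quasi-likelihood test called none of the 10 members, and 0.133% of all genes (19 genes, 0.105% higher and 0.028% lower). Without BSF_C replicate 2 it called 12. DESeq2 and limma-voom called none of the 10 either, and 1 had an unadjusted p under 0.05. That was Lgr5, at -0.37 ± 0.13 (adjusted p = 1), whose 3 BSF_C libraries lay below both BSF libraries. Slc12a2 did not overlap either, beside 21.5% of all genes. The other members lay between -0.12 (Smoc2) and 0.09 (Axin2) on the log2 scale, with SEs of 0.05 to 0.14.

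Gene lists for the rest of the pathway and for the cells around the stem cells put these values in context. The lists were written with earlier results of these data known, and the genes named from each are the 3 with the highest level per length, whatever their change. Among 18 other crypt stem cell genes, 1 was higher and 12 were lower in BSF_C against con, 2 and 11 in BSF, 2 and 13 in LSF and 1 and 10 in DSF. Cdca7, a Myc-responsive gene of cycling stem cells, fell by 0.87, 0.81, 1.10 and 1.01 in BSF_C, BSF, LSF and DSF on the log2 scale. Lrig1, a membrane brake on growth factor receptors, fell by 1.11, 1.11, 1.27 and 1.01 in that order, and Hopx, a homeodomain protein of slowly cycling crypt cells, by 0.42, 0.40, 0.34 and 0.40. The list's median log2 fold change was -0.52, -0.43, -0.43 and -0.46, beside 0.12, 0.11, 0.10 and 0.10 over all genes. Against con 36.6% to 39.8% of all genes were called higher and 31.1% to 33.2% lower. In LSF against DSF none was higher and 5 were lower, with a median of -0.15, and Lrig1 was among the lower ones (-0.27 ± 0.08, adjusted p = 0.0135). In BSF set against the mean of LSF and DSF 5 were higher and 1 was lower. Cdca7 was among the higher ones (0.24 ± 0.07, adjusted p = 0.0118). In BSF_C against BSF 1 was higher. Beside these, 8.97% of all genes were called higher and 6.91% lower in LSF against DSF. In BSF set against the mean of LSF and DSF 9.87% were called higher and 11.5% lower, and in BSF_C against BSF 0.105% higher.

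Of 13 other Wnt target genes tested, 3 were higher and 9 lower in BSF_C against con, and 2 and 8 in BSF. In LSF and in DSF 2 were higher and 7 lower. Beside these, 36.6% to 39.8% of all genes were called higher against con and 31.1% to 33.2% lower. The list's median log2 fold change was -0.32, -0.28, -0.27 and -0.36 in BSF_C, BSF, LSF and DSF. Over all genes the medians were 0.12, 0.11, 0.10 and 0.10. Of the same 13, 1 was higher and 2 were lower in LSF against DSF. In BSF set against the mean of LSF and DSF 2 were higher and 3 lower, and in BSF_C against BSF none was called. The shares of all genes called were 15.9%, 21.4% and 0.133% in that order. Ccnd1, the cyclin that drives cells into the cycle, averaged 176 ± 3.58 CPM in BSF_C, 119 ± 7.01 in LSF, 159 ± 0.749 in DSF and 401 ± 31 in con (mean ± SD), and in LSF against DSF it fell by 0.42 ± 0.07 (adjusted p = 2.86e-06). Cdx1, an intestinal homeobox factor, fell against con by 0.32, 0.32, 0.37 and 0.34 in BSF_C, BSF, LSF and DSF. Id3, an inhibitor of helix-loop-helix factors, fell by 0.26 in BSF_C and 0.28 in BSF, and was at -0.14 in LSF and 0.08 in DSF, neither of them called. Sp5, a Wnt-induced zinc finger factor singled out after its values were seen, was among the higher ones in all 4 feeding groups. It averaged 27.5 ± 2.10 CPM in BSF_C, 26.4 ± 1.28 in BSF, 51.8 ± 3.22 in LSF, 30.3 ± 1.18 in DSF and 9.71 ± 0.415 in con, and it rose in LSF against DSF by 0.78 ± 0.10 (adjusted p = 2.96e-08).

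The 23 genes of the Wnt pathway core showed no common direction against con. In BSF_C 10 were higher and 11 lower, in BSF and in LSF 9 and 11, and in DSF 7 and 9. Beside these, 73% of all genes were called in BSF_C, 70.2% in BSF, 72% in LSF and 67.7% in DSF. Ctnnb1, beta-catenin itself, averaged 829 ± 14.3 CPM in BSF_C, 824 ± 14.4 in BSF, 785 ± 4.33 in LSF, 834 ± 20.2 in DSF and 773 ± 31.2 in con, and of the 7 comparisons it was called in BSF_C against con (0.10 ± 0.05, adjusted p = 0.0493). Fzd5, a Frizzled receptor, fell by 0.74, 0.78, 0.76 and 0.78 in BSF_C, BSF, LSF and DSF. Csnk1a1, a kinase that marks beta-catenin for destruction, rose by 0.26, 0.31, 0.23 and 0.32 in the same order. Between LSF and DSF 1 core gene was higher in LSF and 2 were lower. In BSF set against the mean of LSF and DSF none was higher and 2 were lower, and in BSF_C against BSF none was called. The shares of all genes called were 15.9%, 21.4% and 0.133% in that order.

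Of 14 genes for Wnt and R-spondin ligands and their secretion, 9 could be tested, and of these none was higher and 1 lower in BSF_C against con, 1 and 1 in BSF, 1 and 1 in LSF and 2 and 1 in DSF. Over all genes 67.7% to 73% were called in these comparisons. None of the 9 was called between the feeding groups. Wnt5b had the highest level per length and fell by 0.48, 0.52, 0.61 and 0.63 in BSF_C, BSF, LSF and DSF against con. Wls, the carrier that brings Wnt proteins to the surface, and Wnt3, the ligand made by Paneth cells, were called in no comparison. Wnt3 averaged 2.87 ± 0.730 CPM in BSF_C, 3.50 ± 0.569 in BSF, 2.51 ± 0.327 in LSF, 3.47 ± 0.127 in DSF and 3.89 ± 1.82 in con. All 4 R-spondin genes were too low to test, with 0 to 7 counts in each feeding group and none in the smaller con libraries.

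Proliferation genes showed no common direction against con in BSF_C, BSF and DSF. In LSF most were lower, with a median log2 fold change of -0.30, beside 0.10 over all genes. Of 18, 6 were higher and 5 lower in BSF_C, 4 and 4 in BSF, 3 and 6 in DSF, and 3 and 11 in LSF. Of all genes, 38.9% were called higher and 33% lower in LSF. For the 18, calls in either direction thus numbered 11 in BSF_C, 8 in BSF, 9 in DSF and 14 in LSF, beside 73%, 70.2%, 67.7% and 72% of all genes. Their sum was 1114 to 1129.7 CPM in BSF_C, 1128 to 1176 in BSF, 828 to 841 in LSF, 1043 to 1089 in DSF and 1079.6 to 1138 in con. In LSF against DSF, none of the 18 was higher and 10 were lower, with a median log2 fold change of -0.35. Over all genes 8.97% were called higher there and 6.91% lower. Mki67, the Ki-67 antigen of dividing cells, averaged 214 ± 4.50 CPM in LSF, against 278 ± 18 in DSF (-0.38 ± 0.07, adjusted p = 4.22e-05), and Ccna2, a cyclin of S phase, fell by 0.48 ± 0.07 (2.55e-07). Pcna, the clamp of the replication fork, was at -0.20 ± 0.07 (0.0583). In BSF set against the mean of LSF and DSF 6 of the 18 were higher and none was lower. Over all genes 9.87% were called higher and 11.5% lower in that comparison. The LSF and DSF libraries did not overlap in the sum, and the LSF sum lay below that of every other library.

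Villus enterocyte genes moved the other way to the 7 members that were lower than con. All 16 were higher in each feeding group than in con, and their sum was 31863 to 34243 CPM in BSF_C, 32540.4 to 32760.1 in BSF, 38333 to 39086 in LSF, 26177 to 26733 in DSF and 7252 to 8141 in con. In LSF against DSF all 16 were higher, with a median log2 fold change of 0.49, beside the falls of Olfm4, Smoc2, Ephb2 and Slc12a2. Over all genes 8.97% were called higher there, and 36.6% to 39.8% against con. Leukocyte genes summed to 220.5 to 244 CPM in BSF_C, 207 to 225 in BSF, 332 to 337 in LSF, 332 to 338 in DSF and 44.9 to 55.5 in con. Fibroblast and stromal genes summed to 71.1 to 126 CPM in BSF_C, 65.3 to 71.6 in BSF, 164 to 201 in LSF, 154 to 172 in DSF and 12 to 16.6 in con. In con 5 of the 12 stromal genes (Col1a2, Col3a1, Col6a3, Lum and Thy1) had no count. The part of the other cell types in the members' levels was not tested.

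**Figure D4:**
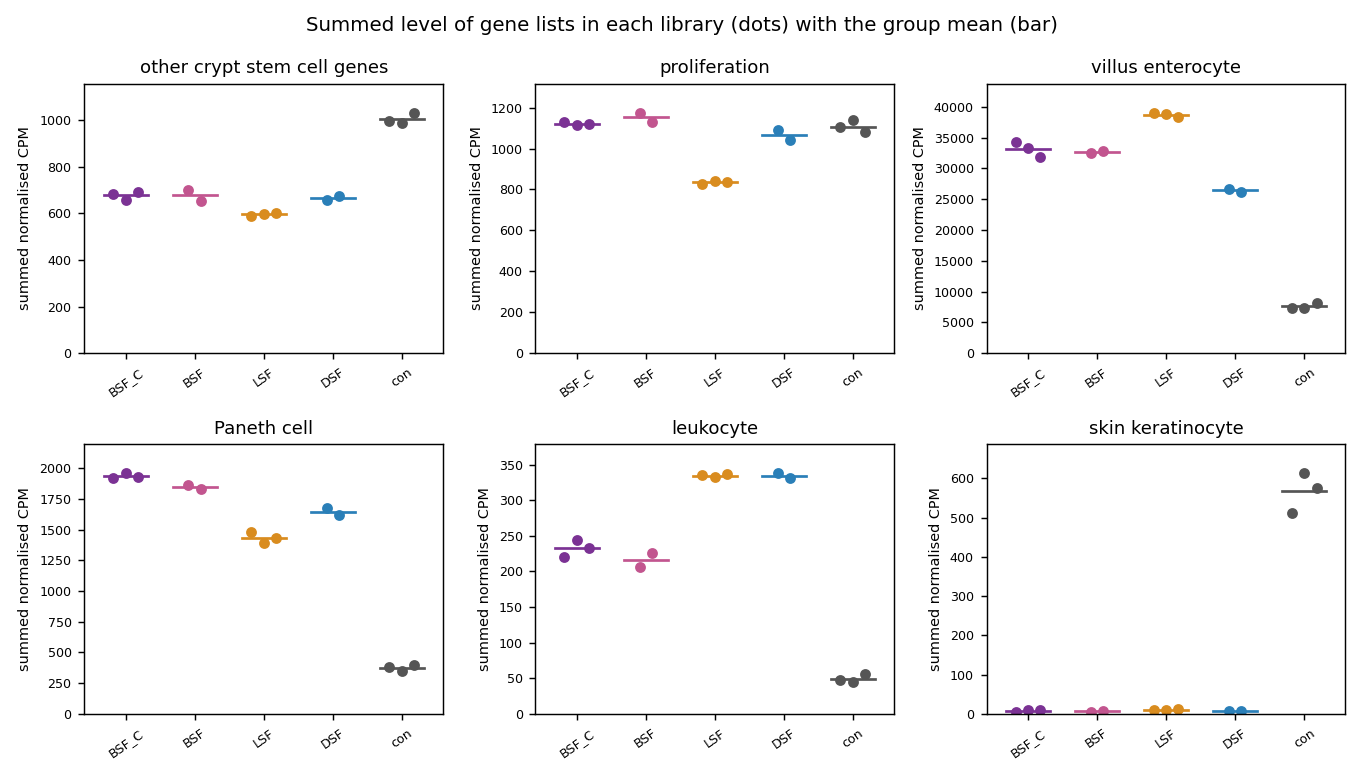
Summed normalised CPM of 6 gene lists in every library, each axis starting at 0. Dots are libraries and bars are group means. The LSF libraries are lowest for other crypt stem cell genes and proliferation and highest for villus enterocyte genes. The con libraries stand apart as highest for the other crypt stem cell and skin lists and lowest for the villus, Paneth and leukocyte lists.

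The genes most like the members over all 13 libraries, by Pearson's r with the mean of their standardised log2 CPM, were Pars2 (r = 0.99), Arfip1 (0.99), Atp10b (0.98), Rad23b (0.98) and Lig3 (0.98). Over the 10 feeding libraries they were Grm7 (0.98), Ptpn11 (0.97), Noa1 (0.97), Arpp19 (0.96) and Pars2 (0.96). These were picked as the highest of all tested genes, and con lies apart from the rest of the 13 libraries. The members themselves did not all follow this mean. Over all 13 libraries Ascl2 had r = -0.85 and Sox9 -0.26, while the others ran from 0.68 (Slc12a2) to 0.97 (Smoc2). Over the 10 feeding libraries Rnf43 had -0.80, Lgr5 -0.20 and Axin2 -0.18, and the others 0.44 (Ascl2) to 0.91 (Smoc2). Pars2 averaged 20.5 CPM in BSF_C, 24.1 in BSF, 17.5 in LSF, 19.99 in DSF and 54.5 in con. Grm7 was near the limit of detection, with means of 0.637 to 1.88 CPM in the feeding groups and no count in con.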

How the data were processed

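Messenger RNA of sorted jejunal epithelial cells was sequenced in 13 libraries. The authors deposited raw counts per gene with no normalization, 21868 symbols in all, of which 21689 matched GENCODE release M21 on GRCm38. Per the submitters' processing notes, STAR 2.7.2e, cutadapt 2.9, FastQC 0.11.8 and DESeq2 1.32.0 were used, with builds mm10 and GRCm38, while the strand setting and the handling of multiply mapped reads are not given in the sources used here. Lgr5 overlaps A930009A15Rik, which had at most 5 counts in a library.

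Groups followed the labels. The 2 DSF columns are numbered S2 and S3 while the labels number 1 and 2, so they carry no replicate number. The filter on low counts was filterByExpr of edgeR (14300 genes, 99.91% of counts). Libraries were scaled by TMM and tested with the quasi-likelihood test of edgeR 4.0.16 (R 4.3.3) in a single model of group means (residual degrees of freedom: 8). Tests were two-sided, p-values were adjusted by Benjamini-Hochberg across the genes kept, and the threshold was 0.05. Each SE came from the fold change and the root of its F statistic. CPM are TMM-scaled, and per kb means per kb of the union of a gene's exons. The members, the 22 gene lists, the 7 comparisons and the alternatives were chosen with earlier results of these data known. All members were named, and of each pathway list the 3 genes highest per length, with Epcam and Ptprc. Library totals of 4851239 to 8589351 set the counting precision. The procedure was also run on simulated counts in which a small share of genes changed. Far more genes were called against con, so that run does not test the comparisons with con. Alternatives used DESeq2 1.42.0, limma 3.58.1 and the other settings given at the end.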

Additional observations from a re-analysis of the deposited data

How the results depend on the processing

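Each result was recomputed under 11 other settings where they applied and with each of 13 libraries left out in turn. Of 70 member log2 fold changes (10 genes in 7 comparisons), 46 kept their direction and their side of the threshold in every setting, and 24 did not in at least 1. The falls of Lgr5, Olfm4, Smoc2, Ephb2, Axin2, Rnf43 and Znrf3 and the rise of Ascl2 against con were among the 46 in all 4 comparisons. Members called ranged over all settings from 8 to 10 in BSF, BSF_C and DSF against con, from 9 to 10 in LSF against con, and were 0 throughout in BSF_C against BSF. Depth limits Ascl2 most, at 14 to 31 counts in a con library.
Over all genes, BSF_C against BSF had 2 calls with DESeq2's Wald test, 4 with limma-voom, 30 with no filter, 32 with only the groups compared in the fit and 29 with con left out, in place of 19, and 12 to 23 with a library left out. Leaving out a library gave 1467 to 2748 calls over all genes and 2 to 4 members in BSF set against the mean of LSF and DSF, and 1288 (without DSF library S2), 1430 (without DSF library S3) to 1866 calls and 2 to 4 members in LSF against DSF.
Log2 fold changes near 0 changed sign. With library totals alone Slc12a2 was at 0.135 in BSF and 0.0217 in BSF_C against con, Rnf43 at -0.0043 in BSF_C against BSF and Znrf3 at -0.0214 in LSF against DSF. In BSF_C against BSF, Rnf43 was at -0.0033 with no filter, -0.0138 with a replicate block and -0.0243 with trends of GC content and length removed, which put Ascl2 at -0.017, and with thinned libraries Znrf3 was at -0.093. Thinning put Sox9 at 0.0018 in LSF against DSF. With a library left out, Slc12a2 ranged from -0.128 to 0.0968 in BSF against con, and Znrf3 from -0.0229 to 0.314 in BSF set against the mean of LSF and DSF. In BSF_C against BSF, Ascl2 ranged from -0.141 to 0.22, Rnf43 from -0.0545 to 0.0573 and Znrf3 from -0.132 to 0.206. In LSF against DSF, Ascl2 was at -0.0085 without DSF library S2 and from -0.0506 to 0.128 with an LSF library left out, within a range up to 0.142, and Axin2 ranged from -0.164 to 0.0059. Sox9 was at 0.0492 without DSF library S3 and ranged from -0.0599 to 0.0118 with an LSF library left out, and Znrf3 was at -0.0251 without DSF library S3, within a range up to 0.101. The cause was not tested.
With library totals alone the median over all genes against con moved to 0.28 in BSF_C, 0.29 in BSF, 0.20 in LSF and 0.26 in DSF. The r between the deviations of libraries of the same replicate number was -0.06 to 0.03 over 15 pairs. For libraries of different numbers it was -0.03 to 0.05 over 30 pairs. Each group held few libraries, which in the feeding groups differed by little more than counting error. These values therefore cannot show whether the numbers pair the libraries. With the replicate block 8 members were called in BSF and 9 in BSF_C and LSF against con, the added call being Slc12a2 in BSF_C (-0.15, adjusted p = 0.048), and the number of calls over all genes was 9729 in BSF, 10284 in BSF_C and 10136 in LSF against con and 18 in BSF_C against BSF.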

Other observations

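Genes of Notch signalling, which keeps crypt cells undifferentiated, were called in both directions. Of 11 Notch pathway genes tested, 3 were higher and 7 lower in BSF_C, BSF and DSF against con, and 2 and 7 in LSF, beside 67.7% to 73% of all genes called in these comparisons. Hes1, the repressor that Notch switches on, averaged 64 ± 2.04 CPM in BSF_C, 68 ± 0.176 in BSF, 52.5 ± 4.31 in LSF, 61.5 ± 2.07 in DSF and 41.1 ± 4.23 in con (mean ± SD), and rose in all 4 comparisons. Dtx4, a ubiquitin ligase of the pathway, fell by 1.62, 1.58, 1.36 and 1.60 on the log2 scale in BSF_C, BSF, LSF and DSF (edgeR, adjusted p at most 2.82e-25), and the ligand Dll1 was called in no comparison with con. Dll1 fell in BSF set against the mean of LSF and DSF by 0.22 ± 0.08 (adjusted p = 0.0365).

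BMP signalling opposes Wnt along the crypt axis. Of 14 BMP pathway genes tested, 3 were higher and 5 lower in BSF_C against con and 5 and 5 in BSF. In LSF 5 were higher and 3 lower and in DSF 3 and 3, beside 67.7% to 73% of all genes called against con. In BSF set against the mean of LSF and DSF 2 were higher and 4 lower, beside 9.87% and 11.5% of all genes. There the BMP target Id1 fell by 0.28 ± 0.06 (adjusted p = 0.000873), as did Id3 by 0.25 ± 0.07 (0.00958). Smad4, the shared partner of the pathway's transcription factors, fell against con by 0.43, 0.41, 0.29 and 0.37 in BSF_C, BSF, LSF and DSF. No explanation was tested.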
